A study of Homo sapiens with 10 samples.

Results

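IGROV-1, a human ovarian carcinoma cell line, was compared with 6 other ovarian cancer lines by nanopore long-read RNA sequencing. The other lines were COV362, COV504, SK-OV-3, OVTOKO, OVMANA and OVKATE. The comparison set the 2 PromethION libraries of IGROV-1 against 1 PromethION library of each other line, 8 of the 10 libraries of the series. The 2 MinION libraries of IGROV-1 served as a check. The labels give no treatment, genotype or passage for any line, and all libraries were made from total RNA with the same ligation kit. Estimated counts were summed per gene identifier and scaled to CPM, the counts per 1000000 counts of the library, over 57110 gene identifiers. A gene was called absent in IGROV-1 when each other line had at least 5 CPM and both IGROV-1 PromethION libraries had under 1 count. This rule found 53 of the 7281 genes present in all 6 other lines (0.728%). A gene was called confined to IGROV-1 when both its PromethION libraries had at least 5 CPM and each other line had under 1 count, which held for 5 of 9041 genes (0.0553%).

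Epithelial tumour cells usually carry adhesion proteins, keratins and secreted protease inhibitors, and many also produce chemokines and interferon-induced proteins. Oncofetal genes are active in the embryo and are silent in most adult tissues, and some of them are switched on again in tumours. Genes of these kinds are described below for IGROV-1, together with the 3 genes that mark the line, EPHA3, LIN28A and RGS5.

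Library totals ran from 1729782 to 3666224 counts, and the IGROV-1 PromethION libraries, at 2341102 and 2328087, were deeper than 5 of the 6 other lines. Mitochondrial ribosomal RNA made up 9.13% and 10.9% of the counts of the IGROV-1 PromethION libraries, 1.01% and 1.15% of the MinION ones and 1.58% to 3.31% in the other lines. Leaving it out of the totals gave the same 53 absent genes and 6 confined genes. The 2 replicates of IGROV-1 were not alike for every gene: KRT18, a simple-epithelium keratin, lay at 263 and 1041 CPM on the PromethION and at 244 and 1080 CPM on the MinION, for replicates 1 and 2. Across 7898 genes the log2 ratio of replicate 2 to replicate 1 correlated between the instruments with a Pearson r of 0.47, a value across genes, which are not independent replicates. Whether libraries of the same number came from the same RNA is not stated, so the MinION libraries may not be a check from separate cultures. No label says that the lines were grown as separate cultures per library, and p-values measure the spread between these libraries only.

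EPHA3, LIN28A and RGS5 were all high in IGROV-1 and at or close to 0 in the other lines. EPHA3, a receptor tyrosine kinase that binds ephrin-A ligands (chromosome 3, 89107524 to 89482134, GRCh38), had 135 and 137 CPM in the PromethION libraries of IGROV-1 and 155 and 181 CPM in the MinION libraries. In the other lines its only count was a single one in COV362, at 0.39 CPM. LIN28A, an RNA-binding protein that blocks maturation of the let-7 microRNAs (chromosome 1, 26410778 to 26429722), had 110 and 173 CPM on the PromethION and 80.2 and 111 CPM on the MinION. It had no count in any other line. RGS5, which speeds GTP hydrolysis by G protein alpha subunits and is widely used as a pericyte marker (chromosome 1, 163111121 to 163321791), had 109 and 138 CPM on the PromethION and 138 and 177 CPM on the MinION. The other lines had a lowest level of 0, a median of 0.66 and a highest of 2.22 CPM for RGS5. In such bulk libraries fewer expressing cells and less RNA per cell cannot be told apart. For each of the 3 genes the 4 IGROV-1 libraries stood above all 6 other lines without overlap.

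Summed over both PromethION libraries, EPHA3 had 634 counts in IGROV-1 against 1 in the 6 other lines together, a ratio of CPM of 1683 (95% interval 301.1 to 66595, exact binomial, counting error only). RGS5 had 577 counts against 13, a ratio of 118 (68.4 to 223). LIN28A had 659 counts against 0, which is at least 583-fold higher when the 0 is set at its upper limit of 3 counts over the 6 lines. Almost all EPHA3 counts came from the transcript ENST00000336596, with 99.6% and 98.0% on the PromethION. LIN28A counts came mainly from ENST00000326279, with 93.4% and 92.8%, and RGS5 counts mainly from ENST00000313961, with 88.3% and 80.3%. The RGS5 values are those of the protein-coding gene, and a gene of the same name annotated on chromosome 1 as antisense had at most 1.29 CPM in IGROV-1.

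EPHA3 was the only gene that passed the test between lines. With both IGROV-1 PromethION libraries summed to 1 sample and set against the 6 other lines, edgeR's quasi-likelihood test called 1 of 12738 genes at a Benjamini-Hochberg adjusted p under 0.05 (0.00785%). EPHA3 was higher in IGROV-1 by 10.08 on the log2 scale (SE 0.79, adjusted p = 0.015), and 0 genes were called lower (0.0%). At an unadjusted p under 0.05 there were 779 genes (6.12%), 248 higher (1.95%) in IGROV-1 and 531 lower (4.17%). DESeq2 on the same 7 samples called 25 higher and 350 lower. The call of EPHA3 was lost when the libraries were thinned to equal total counts (log2 change 10.95, adjusted p = 0.22) and when any of the other lines was left out (log2 change 9.88 to 11.42, adjusted p = 0.059 to 0.29, the highest without COV362, which holds the single count), and over all alternatives its adjusted p ran from 1.2e-07 to 0.29. Outside IGROV-1, EPHA3 had a single count, so it passed the count filter only through IGROV-1, the group where it is high. The same holds for RGS5, with 13 counts in the 6 other lines together. Genes that enter in this way had to differ, so their results describe the line and are no separate support. The median change over all genes tested was -0.22 on the log2 scale.

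RGS5 was higher by 6.91 on the log2 scale (SE 0.79) and missed the threshold of edgeR's test (adjusted p = 0.089). Over the alternatives its edgeR or DESeq2 adjusted p ran from 7.2e-07 to 0.24 and was under 0.05 in 5 of them, among them DESeq2 (adjusted p = 1.1e-06). RPL22L1, a paralog of the ribosomal protein RPL22, also missed the threshold (adjusted p = 0.118 by edgeR, 1.4e-06 to 0.28 over the alternatives with edgeR or DESeq2). It lay at 823 and 618 CPM on the PromethION and 1053 and 755 CPM on the MinION, against a lowest of 29.4, a median of 48.6 and a highest of 80.4 CPM in the other lines. All 4 IGROV-1 libraries were thus above all 6 other lines for RPL22L1, while RPL22 itself, at 1277 and 1293 CPM on the PromethION, lay inside the range of 807 to 1889 CPM of the other lines.

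**Figure D1:**
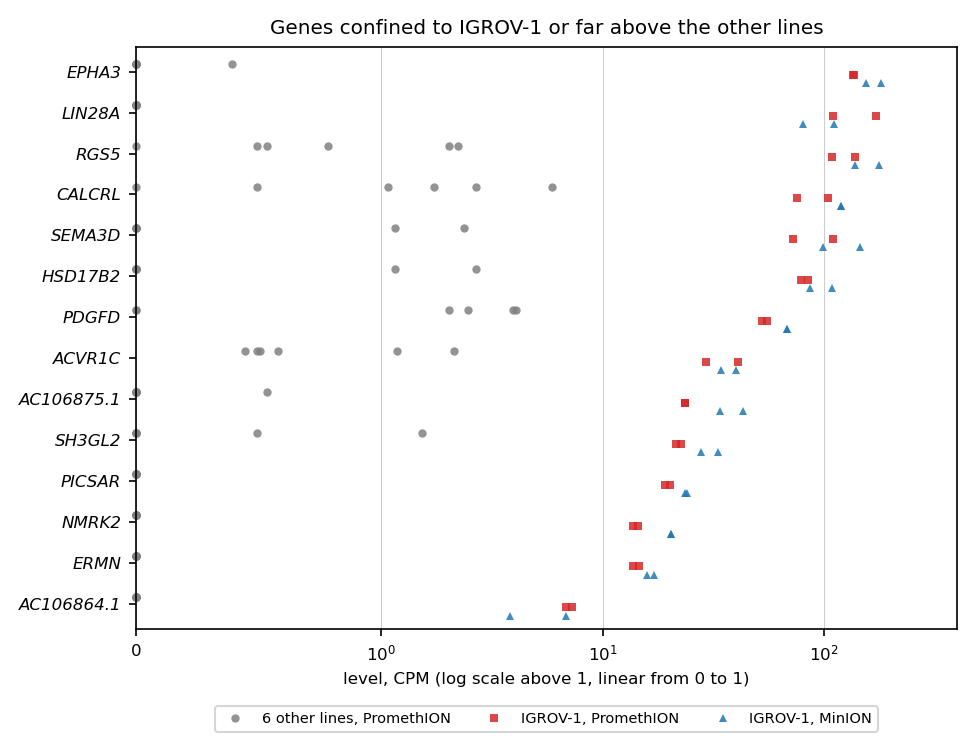
Levels in CPM of the genes confined to IGROV-1 or far above the other lines, on an axis that is linear from 0 to 1 and logarithmic above. Grey circles are the 6 other lines, red squares the 2 PromethION and blue triangles the 2 MinION libraries of IGROV-1; for EPHA3 the other lines lie at 0 to 0.39 CPM and the 4 IGROV-1 libraries at 135 to 181 CPM.

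Besides LIN28A, 4 genes were confined to IGROV-1, all at much lower levels. PICSAR, a long noncoding RNA (chromosome 21, 44999208 to 45004727), had 19.2 and 20.2 CPM on the PromethION and 23.5 and 24.1 CPM on the MinION. NMRK2, a nicotinamide riboside kinase best known from muscle, had 14.5 and 13.7 CPM, and 20.5 and 20.4 CPM on the MinION. ERMN, ermin, a cytoskeletal protein of oligodendrocytes, had 13.7 and 14.6 CPM, and 15.8 and 17.0 CPM on the MinION. These 3 were found at similar levels in all 4 IGROV-1 libraries and had no count in any other line. AC106864.1, annotated as antisense, had 6.83 and 7.30 CPM on the PromethION, and its MinION values of 3.82 and 6.80 CPM fell on both sides of the limit of 5 CPM. Because strand-aware counting is not stated, its counts may belong to an overlapping gene. Just outside the rule lay HPD, with 4.70 CPM in the lower IGROV-1 library, and EPHA3, with its single count in COV362.

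A wider rule, chosen after the values were seen, took genes with at least 20 CPM in all 4 IGROV-1 libraries and at least 10 times the highest other line, and found 11. CALCRL, the receptor for calcitonin gene-related peptide and adrenomedullin, lay at 105 and 75.6 CPM on the PromethION, against 0 to 5.88 CPM in the other lines. SEMA3D, a secreted semaphorin, lay at 72.6 and 110 CPM against 0 to 2.35 CPM. HSD17B2, which inactivates estradiol by oxidation, lay at 85 and 79.0 CPM against 0 to 2.67 CPM. PDGFD, a platelet-derived growth factor, lay at 52.5 and 55.4 CPM against 0 to 4.05 CPM, and ACVR1C, the activin receptor-like kinase ALK7, at 41.0 and 29.2 CPM against 0.445 to 2.14 CPM. SH3GL2 and AC106875.1 had 21.5 to 23.6 CPM on the PromethION. EPHA3 apart, none of the 11 passed edgeR's test.

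The absent genes were spread over 20 chromosomes, with 6 on chromosome 4 and 5 on chromosome 1. All 53 had no count at all in both PromethION libraries, and 40 (75.5%) also had no count in the MinION libraries. The other 13 had at most 2 counts in a MinION library, or 0.62 CPM. Of the 53, 51 were protein-coding genes with a single identifier and are named below, 1 was a pseudogene and 1 was a joined identifier of overlapping genes. The median over the 53 genes of the lowest level in the other lines was 10.6 CPM, and the highest such level was 168 CPM. Since the genes were chosen by this contrast, their difference is a description and carries no test.

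SLPI, a secreted inhibitor of leukocyte proteases, had the highest minimum of the absent genes (chromosome 20, 45252239 to 45254564). It lay at a lowest of 168 CPM in COV362, a median of 644 and a highest of 2083 CPM in OVTOKO, against 0 counts in all 4 IGROV-1 libraries. With the 0 of the IGROV-1 PromethION pair set at 3 counts, or 0.64 CPM, the lowest other line was at least 262-fold higher. LGALS3, galectin-3, which binds beta-galactoside sugars (chromosome 14, 55124110 to 55145413), ranged from 160 to 1229 CPM with a median of 560.1 CPM, and had no count in IGROV-1. OCIAD2 ranged from 96.2 to 562 CPM and H2AFJ, a histone H2A variant, from 73.7 to 129 CPM, both with no count in any of the 4 libraries. TGM2, the tissue transglutaminase that crosslinks proteins, ranged from 91.2 to 648 CPM, with 2 counts in 1 MinION library of IGROV-1. NT5E, the ectonucleotidase CD73 that forms adenosine, ranged from 42.7 to 195 CPM, with 1 count in a MinION library.

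Genes of epithelial attachment were among the absent ones. KRT7, a keratin of glandular epithelia, ranged from 14.5 to 1693 CPM in the other lines with a median of 585 CPM. ITGB4, the integrin beta-4 of hemidesmosomes, ranged from 18.8 to 296 CPM, and LAMB3, a chain of laminin-332, from 10.6 to 178 CPM. FAT1, an atypical cadherin, ranged from 21.4 to 72.3 CPM, with 1 count in a MinION library of IGROV-1. None of these genes had a count in the PromethION libraries of IGROV-1. The absent genes also held genes of secreted and surface proteins. CXCL1, a neutrophil chemokine, ranged from 33.7 to 382 CPM, TNFSF10, the death ligand TRAIL, from 19.1 to 316 CPM, and C3, the central complement protein, from 5.09 to 1087 CPM. TGFB1, transforming growth factor beta-1, ranged from 5.48 to 89.1 CPM. TFPI2, BTC, FGFBP1, CD40, IL15RA, CD109 and ADGRG1 were further members.

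Several absent genes are known targets of interferon. UBE2L6, which conjugates the ubiquitin-like protein ISG15, ranged from 8.55 to 312 CPM in the other lines. IFI16, a DNA sensor, ranged from 10.2 to 94.0 CPM, and ISG20, an exonuclease, from 8.67 to 58.4 CPM. GBP3, APOL1, APOL6 and SP140L had minima between 5.78 and 9.62 CPM. ISG20 had 1 and 2 counts in the MinION libraries of IGROV-1, and the other 6 had none in any of its libraries. Regulators of transcription and of the cell cycle were ETS1, a transcription factor, at 7.48 to 32.9 CPM, CDK6, a G1 cyclin-dependent kinase, at 8.55 to 87.6 CPM, and SMARCA2, an ATPase of the SWI/SNF chromatin remodeller, at 5.20 to 30.7 CPM. SMARCA2 had 2 counts in a MinION library of IGROV-1. Enzymes included NNT, the mitochondrial transhydrogenase, ME1, the cytosolic malic enzyme, CYP1B1, NME4, AIFM2, PLPP2, PNPLA4, ECHDC2 and TARSL2. UCHL1, a deubiquitinase of neurons, ranged from 10.1 to 843 CPM. The remaining members were BASP1, HTATIP2, TCEAL8, GNG11, SH2D4A, LXN, RAB38, NPTXR, GLMP and PMEPA1. These role groups, and those of attachment and of secreted and surface proteins above, were formed after the members were known. Their shares among the 7281 genes present in all 6 other lines were not computed. The groups thus describe the members and show no excess of any role.

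**Figure D2:**
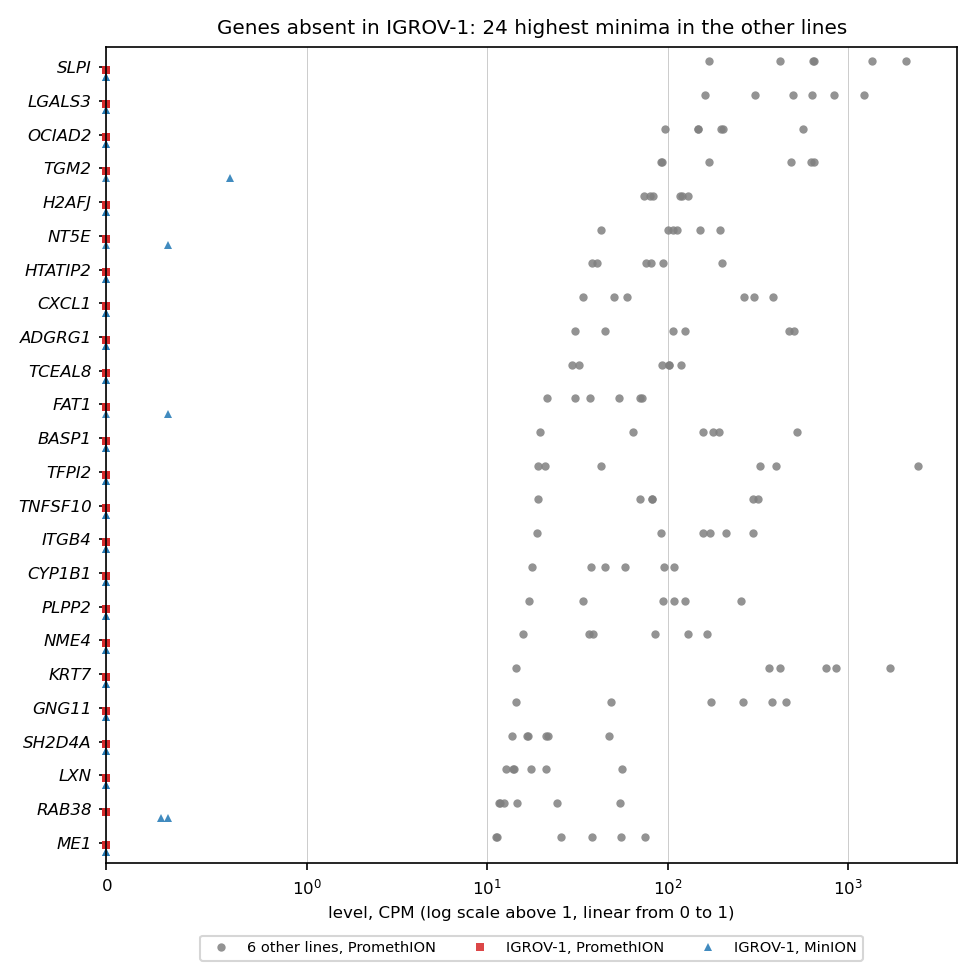
Levels in CPM of the 24 absent genes with the highest minimum over the 6 other lines, on an axis that is linear from 0 to 1 and logarithmic above. Grey circles are the other lines, red squares the PromethION and blue triangles the MinION libraries of IGROV-1; all red squares lie at 0, and the blue ones at 0.62 CPM or less.

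The limits of the rule can be seen in the genes on either side of it. SMARCA2 and C3 lay just inside the minimum of 5 CPM, with lowest levels of 5.20 and 5.09 CPM, and COL12A1 and RAC2 just outside, with 4.81 and 4.56 CPM. PSMB8, an immunoproteasome subunit at 49.2 to 246 CPM in the other lines, had a single count in 1 PromethION library and is therefore not a member. IL18, an interleukin, lay outside by 1 count as well. In all, 31 genes present in the other lines had 1 to under 3 counts in the higher PromethION library of IGROV-1. A further rule, also set after the values were seen, took genes with at least 20 CPM in each other line and at least 20 times the highest of the 4 IGROV-1 libraries, and found 23, of which 11 were absent genes. The 12 others included S100A16, a calcium-binding protein at 242 to 1070.2 CPM against 0.43 to 2.18 CPM, and TM4SF1, a surface tetraspanin-like protein at 221 to 1487 CPM against 0 to 0.43 CPM. IFI27, an interferon-induced protein, lay at 105 to 2144 CPM against 0.93 to 2.14 CPM, and HSPA1A, an inducible Hsp70, at 40.6 to 95 CPM against 0 to 0.85 CPM.

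The same absent and confined rules were applied to each other line, set against the remaining 5 and replicate 1 of IGROV-1. These lines had 4 to 25 absent genes and 8 to 26 confined genes. A single PromethION library of IGROV-1, set against the 6 other lines, had 62 and 67 absent genes and 5 and 7 confined genes. IGROV-1 thus had more absent genes than any other line and fewer confined genes than any other line. The total counts of its PromethION libraries were above those of all other lines but COV362. Mitochondrial ribosomal RNA made up 9.13% and 10.9% of these totals, against 3.31% in COV504, the next deepest line. With the libraries thinned to the smallest total, IGROV-1 had 52 absent genes, 50 of them among the 53, and 7 confined genes. The rule was not applied to the other lines on thinned counts, so the part played by depth in the difference between lines was not tested. These counts were not tested.

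**Figure D3:**
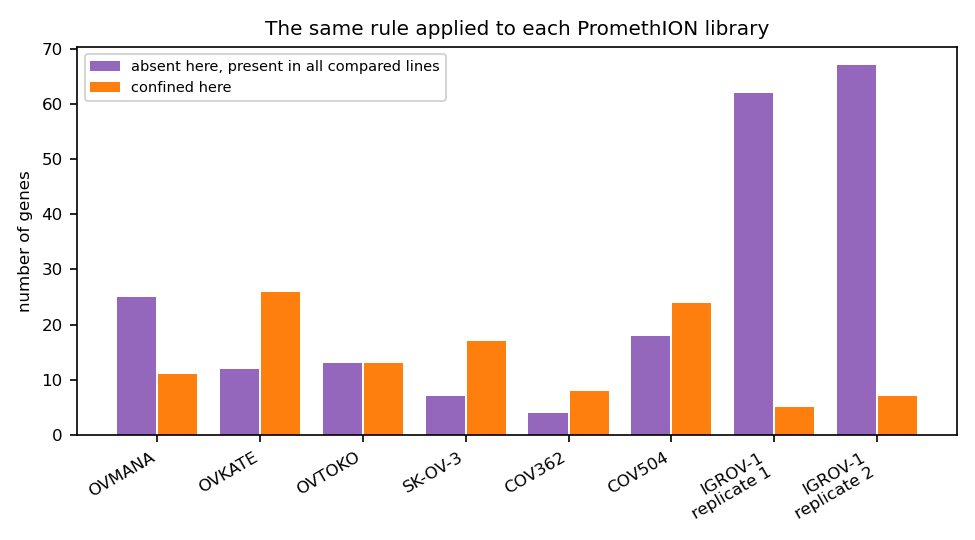
Number of genes absent from each PromethION library but present in the 6 libraries of different lines it is set against (purple), and number confined to it (orange). The 2 IGROV-1 libraries have 62 and 67 absent genes against 4 to 25 for the other lines.

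Lists of genes with known roles were then read against the range of the 6 other lines. All 4 IGROV-1 libraries lay above every other line for 929 of the 12738 genes tested (7.29%) and below every other line for 1022 (8.02%). The balance turned with the scaling: TMM-scaled CPM gave 1089 above and 959 below, leaving out mitochondrial ribosomal RNA 997 above and 945 below, and RLE-scaled CPM 943 above and 1055 below. Apart from EPHA3, no list held a call of edgeR's test. The lists were chosen with earlier results of these data known, and a gene that entered the test only through the group where it is high had to differ, so the counts describe the line and support nothing further. Medians below are of log2 ratios between counts pooled over the IGROV-1 PromethION pair and counts pooled over the 6 other lines, each scaled by its total. A gene that had no count in a group was set at 3 counts, and the median over all genes tested was -0.29. A gene high in only a few other lines can give a strongly negative value while IGROV-1 lies inside the range.

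Among 26 genes of epithelial adhesion and keratins, 24 passed the filter, 0 lay above all other lines and 7 lay below them, with a median of -4.25. CDH1, E-cadherin, had no count in any of the 4 IGROV-1 libraries, against 1.57 to 214 CPM. EPCAM, an epithelial surface adhesion protein, lay at 0 to 1.54 CPM in IGROV-1 against 8.67 to 1814 CPM. KRT8, the partner of KRT18 in keratin filaments, lay at 5.15 to 11.4 CPM against 134 to 3274 CPM. The others below the range were KRT7, MUC1, PKP3 and SPINT1. IGROV-1 did express other genes of this list: KRT19, at 140 and 176 CPM on the PromethION, CLDN3, a tight junction claudin, at 137 and 103 CPM, DSP, desmoplakin, at 103 and 134 CPM, and ELF3, an epithelial transcription factor, at 79.0 and 122 CPM, all lay within the range of the other lines on the PromethION. Of 20 mesenchymal genes, 18 passed the filter, 0 lay above and 2 below, with a median of -3.39. The 2 of 18 below were near the 8.02% over all genes tested. VIM, vimentin, at 505 and 457 CPM, lay inside the range, as did ZEB1, at 30.3 and 30.9 CPM, while SPARC, at 0 to 0.93 CPM in IGROV-1, lay among the lowest of lines that ran from 0 to 2043 CPM.

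Of 26 secreted defence proteins and chemokines, 24 were found in the files, 22 passed the filter, 0 lay above and 7 lay below the other lines, with a median of -4.33. These 7 were C3, CXCL1, CXCL2, CXCL3, CXCL8, PI3 and SLPI. CXCL8, interleukin-8, ranged from 4.27 to 138 CPM in the other lines and had no count in IGROV-1. Of the 24 genes, 13 had no count in any of the 4 IGROV-1 libraries, LCN2, IL6 and CCL20 among them. Among the 22 tested, 13 had no count in the PromethION pair, against 1165 of all 12738 genes tested. A gene at 0 in IGROV-1 need not lie below every other line: CCL20 had no count in OVTOKO either. NFKBIA, the inhibitor of NF-kappa-B, lay inside the range at 71.3 and 64.0 CPM, and TNFAIP2 inside it at 160.2 and 139.6 CPM.

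Genes of MHC class I antigen presentation were detected in IGROV-1. Of 15 genes, 13 were found and tested, 0 lay above the other lines and 5 below, HLA-E, PSMB8, PSMB9, TAP1 and TAPBP, with a median of -2.01. TAP1, a subunit of the peptide transporter, was no longer outside the range with TMM-scaled CPM. TAPBP, tapasin, which loads peptides, lay at 30.5 to 36.3 CPM against 85.5 to 185 CPM. B2M, the invariant light chain, lay at 563 to 817 CPM, and the other lines ran from 553 to 7623 CPM, so the ranges overlapped. Of the 7 caveolae genes, 6 passed the filter and 2 lay below, against 8.02% over all genes tested. These were CAV1 at 3.87 to 12.3 CPM against 42.2 to 2877 CPM, and CAV2 at 3.01 to 8.73 CPM against 107 to 624 CPM. The coat genes CAVIN1, at 27.0 to 59.0 CPM, CAVIN2, at 69.2 to 91.1 CPM, and CAVIN3, at 16.8 to 25.1 CPM, were expressed and not outside the range. EHD2 had no count in IGROV-1 and none in OVMANA.

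Oncofetal and stem cell genes included several above the range. Of 19 genes, 18 were found, 11 passed the filter, 6 lay above all other lines and 0 below, with a median of 1.29. These 6 were GPC3, HMGA2, IGF2BP1, IGF2BP3, LIN28A and PRTG. Over all genes tested, 7.29% lay above and 8.02% below. LIN28A, with no count in another line, and GPC3, with at most 4, passed the filter only through IGROV-1. The 6 of 11 and the median are thus in part set by the filter. GPC3 was low in IGROV-1 too, at 3.40 to 5.58 CPM. Of the 18 genes found, 5 had no count in any of the 4 IGROV-1 libraries. Among the 11 tested, 2 had none in the PromethION pair, against 1165 of all 12738 genes tested. HMGA2, a chromatin protein of the embryo, lay at 401 and 438 CPM on the PromethION and 479 and 539 CPM on the MinION, against 0 to 109 CPM. IGF2BP1, an RNA-binding protein of the embryo, lay at 63.2 to 80.3 CPM against 0 to 52.9 CPM. IGF2BP3 stood at 38.9 to 46.1 CPM against 0.49 to 38.4 CPM and no longer cleared the range with TMM-scaled or RLE-scaled CPM, or with mitochondrial ribosomal RNA left out. LIN28B, the paralog of LIN28A, had 1 count in 1 IGROV-1 library, SOX2 had 1 count, and NANOG had none. POU5F1, at 111 and 57.6 CPM, lay inside the range of 0 to 221 CPM.

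Among the 14 Eph receptors, 10 passed the filter, and EPHA3 lay above and EPHA2 below the other lines. EPHA2, at 15.8 to 27.9 CPM in IGROV-1 against 51.5 to 136 CPM, was on the opposite side from EPHA3. With 1 of 10 above and 1 of 10 below, this list lay near the shares over all genes tested, 7.29% and 8.02%. Of the ephrins, the ligands of these receptors, 6 passed the filter and 1 lay below, EFNA1, at 6 to 11.5 CPM against 13.4 to 78.6 CPM. EFNA4 and EFNA5 were present at 21.8 and 29.2 CPM and at 25.2 and 28.3 CPM on the PromethION. Of the 21 RGS proteins, 13 passed the filter. RGS5 and RGS16 lay above and RGS12 and RGS19 below the other lines. RGS16 was far lower than RGS5, at 6.82 to 16.8 CPM against 0 to 4.31 CPM.

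RGS5 is also a marker of pericytes, so the other pericyte markers were read beside it. Of the 9 genes, ABCC9, KCNJ8 and HIGD1B had no count in any of the 4 IGROV-1 libraries, and PDGFRB, CSPG4, MCAM and DES had at most 0.86 CPM. NOTCH3 was the only other one present, at 23.9 and 33.5 CPM on the PromethION, inside the range of 1.01 to 108 CPM. Summed over the 9 genes, IGROV-1 had 135 to 219 CPM and the other lines 3.47 to 243 CPM. Fibroblast markers summed to 4.91 to 23.5 CPM, mostly COL1A1, leukocyte markers to 0 to 0.55 CPM, and endothelial markers to 1.28 to 7.30 CPM, of which CDH5 held up to 6.87 CPM. DCN, LUM, CD3E, KDR and TEK had no count in IGROV-1.

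Several markers of the Müllerian lineage were expressed in IGROV-1. PAX8, a transcription factor of the Müllerian epithelium, lay at 211 and 134 CPM, SOX17 at 53.8 and 73.9 CPM, MECOM at 68.8 and 82.0 CPM and FOLR1, the folate receptor, at 230.2 and 235 CPM, all inside the range of the other lines. PAX2 lay above all of them, at 12 to 24.9 CPM against 0 to 4.05 CPM, and CRABP2, a retinoic acid carrier, lay below, at 0 to 1.36 CPM against 4.05 to 970 CPM. Of the 16 genes of this list, 6 had no count in any of the 4 IGROV-1 libraries, WFDC2, ESR1 and WT1 among them. Among the 15 tested, 6 had none in the PromethION pair, against 1165 of all 12738 genes tested. ESR1 had no count in OVMANA and OVTOKO either. Of 16 genes in this list 15 passed the filter, and their median was -4.28. With 1 above and 1 below, the list lay near the shares over all genes tested, 7.29% and 8.02%. Of the 9 mismatch repair genes tested, EXO1 and PCNA lay above and MSH6 below. MSH6, which takes part in recognising mismatches, lay at 7.11 to 17.1 CPM against 52.4 to 141 CPM. Of the 16 ovarian cancer driver genes, 1 lay above, a share near the 7.29% over all genes tested. It was CTNNB1, beta-catenin, at 230.5 to 289 CPM against 90.1 to 141 CPM.

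**Figure D4:**
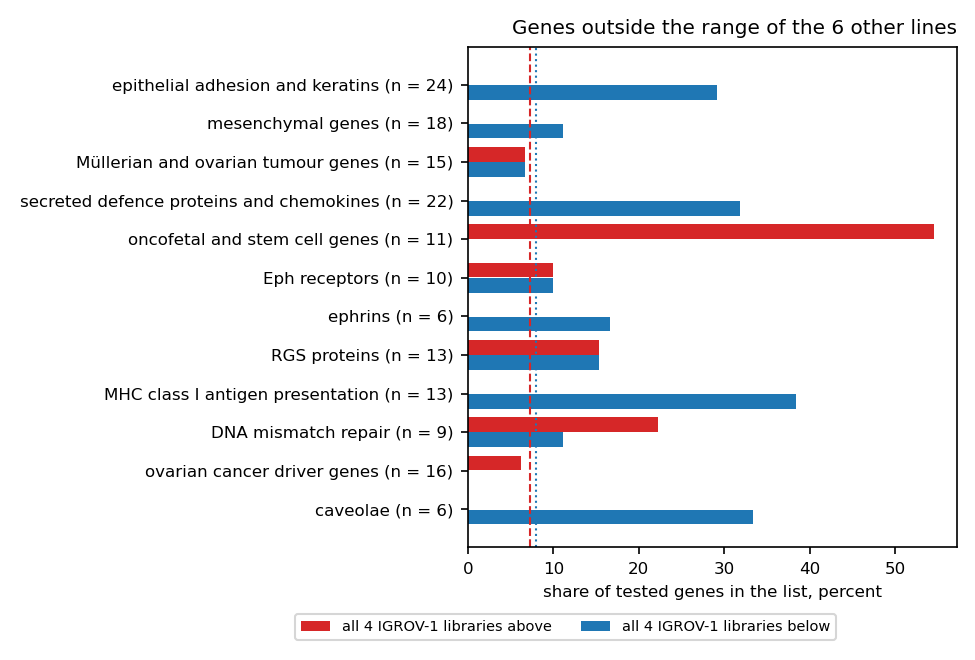
Share of the tested genes of each list for which all 4 IGROV-1 libraries lie above (red) or below (blue) all 6 other lines, in percent, for lists with at least 6 tested genes. The dashed red and dotted blue lines mark the shares over all genes tested, 7.29% and 8.02%.

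Transcript usage was examined next, since long reads can assign a molecule to a splice form. The test of edgeR for usage within genes, applied to the same 7 samples, called 1 of 2647 genes (0.0378%), and 45 (1.7%) passed at an unadjusted p under 0.05. The called gene was ATP6V0E1, a small subunit of the vacuolar proton pump on chromosome 5 (172983757 to 173035445). Its transcript ENST00000265093, which lacks the coding exon 2 of the main transcript ENST00000519374, held 7.19% and 8.66% of the gene's counts in the PromethION libraries of IGROV-1 and 9.91% and 7.79% on the MinION. In the other lines it held 0.05% to 0.54%. The mean share in IGROV-1 was 7.93% ± 1.04 (SD, n = 2) against 0.309% ± 0.185 (SD, n = 6), and edgeR's Simes test gave an adjusted p of 0.031. The SD of IGROV-1 is between 2 libraries of 1 line and that of the others is between 6 lines, so they measure unlike spreads. For the test the 2 IGROV-1 libraries were summed to 1 sample. All 4 IGROV-1 libraries lay above all 6 other lines, whose gene counts were 298 to 1023. The call was lost without IGROV-1 replicate 2, OVMANA, SK-OV-3, COV362 or COV504.

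The exon of 48 bases (chr5:172994775-172994822, GRCh38, plus strand, GENCODE 29) is the coding difference between the 2 forms and is a multiple of 3 bases long. The main transcript also has 59 bases of exon 1 and 553 bases of exon 4, both outside its coding sequence, that the other form lacks.
ATP6V0E1 exon 2: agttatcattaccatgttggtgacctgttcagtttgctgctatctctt

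A broader view took, among 1500 genes with at least 50 counts in all 10 libraries, those with a transcript whose share lay at least 15 percentage points outside the range of the other lines in all 4 IGROV-1 libraries. There were 6 such genes (0.4%), and 12 with the PromethION libraries only. This limit was set after the shares were seen, and no share of these 6 genes is a call: edgeR's adjusted p-values lay at or above 0.797. An exact permutation test of a single share over the 7 lines cannot go below 0.143.

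The widest gap was in ZFAND3, a zinc finger protein of the AN1 type on chromosome 6 (37819499 to 38154624). ENST00000373391, which lacks exon 4, held 70.5% and 79.7% of the counts on the PromethION and 76.2% and 66.9% on the MinION, against 10.8% to 19.3% in the other lines. The gap to the highest other line was at least 47.7 percentage points. For the lower PromethION library the 95% Wilson interval was 60.6% to 79.2%, from 63 of 89 counts, and for COV504, the highest other line, it was 13.1% to 26.8%, from 24 of 126. ECT2, a guanine nucleotide exchange factor needed for cytokinesis, differed in the other direction: ENST00000392692, which includes exon 4, held 95.6% and 97.4% in IGROV-1 and 87.2% and 88.2% on the MinION. In the other lines it held 11.9% to 71.4%. Both exons are coding and a multiple of 3 bases long, 66 and 93, so skipping or including them keeps the frame.
ZFAND3 exon 4 (chr6:38082392-38082457, plus strand): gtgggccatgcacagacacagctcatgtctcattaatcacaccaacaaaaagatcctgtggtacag
ECT2 exon 4 (chr3:172755483-172755575, plus strand): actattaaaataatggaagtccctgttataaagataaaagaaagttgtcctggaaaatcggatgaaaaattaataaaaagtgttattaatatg

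ACP1, a low molecular weight protein tyrosine phosphatase on chromosome 2 (264140 to 278283), uses 1 of 2 mutually exclusive exons of 114 bases. ENST00000272067 held 59.4% and 52.1% in IGROV-1 and 55.8% and 56.0% on the MinION, against 16% to 36.9% in the other lines. The 2 exons are printed below, with the 52 of 114 positions at which they differ in capitals and the 62 shared ones in lower case.
ACP1 exon of ENST00000272067 (chr2:272192-272305, plus strand): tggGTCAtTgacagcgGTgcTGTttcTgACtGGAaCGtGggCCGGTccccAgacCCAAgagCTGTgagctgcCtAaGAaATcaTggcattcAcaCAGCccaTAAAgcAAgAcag
ACP1 exon of ENST00000272065 (chr2:272037-272150, plus strand): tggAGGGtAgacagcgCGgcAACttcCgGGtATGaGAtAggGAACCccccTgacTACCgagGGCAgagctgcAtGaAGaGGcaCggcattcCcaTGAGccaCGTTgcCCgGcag

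The other 3 genes differed in their first or last exons. For SCAND1 the forms also differed by a whole internal exon, the untranslated exon 2 of ENST00000373991. UGP2, which makes UDP-glucose, used ENST00000337130, with another first exon, for 65.9% and 62.8% of counts in IGROV-1 and 62.7% and 64.5% on the MinION, against 9.56% to 29.7%. This form starts its coding sequence with 19 bases of its own first exon. TXNDC9, a thioredoxin-like protein, used ENST00000409434, with an earlier end, for 41.8% and 45.6%, and for 36.9% and 35.0% on the MinION, against 4.42% to 11.2%. SCAND1, a SCAN domain protein, used ENST00000373991 for 53.5% and 50.5%, and for 46.7% and 40.5% on the MinION, against 6.72% to 19.8%, and the 2 forms differ only in untranslated sequence. All 4 IGROV-1 libraries lay outside the range of the other lines for each of these 3 genes.

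**Figure D5:**
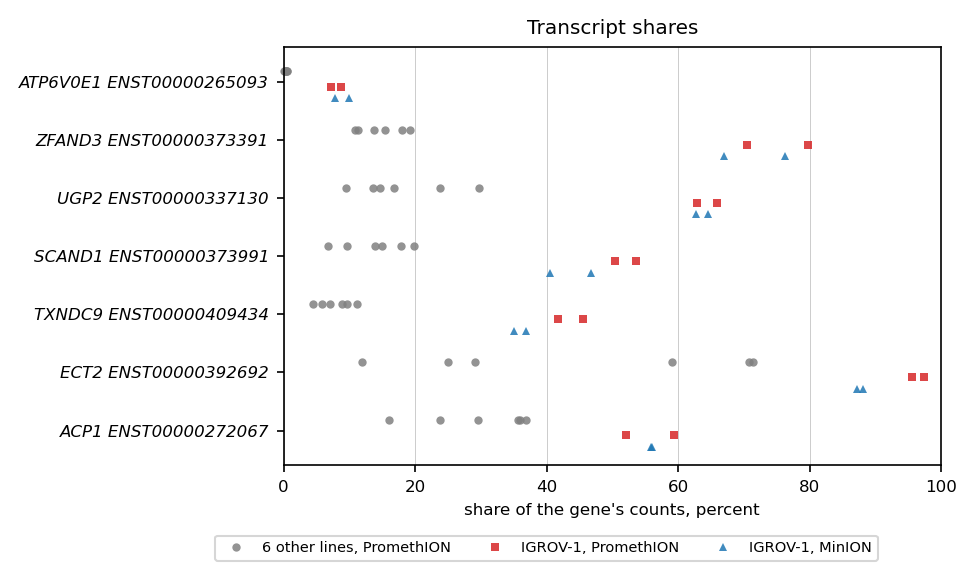
Share of the gene's counts, in percent, held by 1 transcript of each of 7 genes. Grey circles are the 6 other lines, red squares the 2 PromethION and blue triangles the 2 MinION libraries of IGROV-1; for ATP6V0E1 the other lines lie at 0.05% to 0.54% and IGROV-1 at 7.19% to 9.91%.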

How the data were processed

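Nanopore libraries of 7 human ovarian cancer cell lines were analysed, 10 in all. The deposited tables hold estimated counts of annotated transcripts. The authors also deposited a second value that equals CPM, the count scaled by the library total, so neither is divided by length. The submitters' processing notes name minimap2 2.24-r1122 and GRCh38. Quantification settings and the use of strand: not given in the sources used here. Counts were summed per gene identifier, of which 722 join several genes and are not named. Sums were rounded for count tests. Totals were 1729782 to 3666224, and a count of 0 allows up to 3 counts, or 0.64 CPM over the IGROV-1 PromethION pair and up to 1.73 CPM in another line. Such floors and the 95% intervals cover counting error only.

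Genes were tested with edgeR 4.0.16 (R 4.3.3; quasi-likelihood, TMM, default filter, Benjamini-Hochberg, two-sided), with the IGROV-1 PromethION pair summed to 1 sample and 5 residual degrees of freedom. The between-line coefficient of variation was 77.9%. Usage was tested with edgeR's exon-level procedure on transcripts, for genes with at least 20 counts in each sample and transcripts with at least 10 counts. DESeq2 1.42.0 was an alternative, beside other scalings, filters, thinning and left-out libraries. The edgeR tests of genes and of usage were also run on simulated data with known changes, and the recovery is not given here. Exons, gene positions and their sequences come from GENCODE 29.

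The genes named are the 10 absent genes with the highest minimum, the 5 confined genes, the calls, the 3 markers and members of 16 lists. Other absent genes, genes near a limit and transcripts with wide gaps were named after their values were seen. The members and lists were chosen with earlier results of these data known. Some genes that these rules select are not reported here.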

Additional observations from a re-analysis of the deposited data

How the results depend on the processing

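The number of genes called between IGROV-1 and the other lines was 375 with DESeq2, 116 with both IGROV-1 libraries as separate samples, 4 with the MinION libraries in place of PromethION, 3 with no filter on low counts and 0 after thinning to the smallest library. A fit over all 10 libraries, whose spread comes from the IGROV-1 replicates alone, called 5545. Leaving out 1 library gave 0 to 1 calls, and 0 without each of the 6 other lines. The absent genes numbered 92 at a presence limit of 2 CPM, 31 at 10 CPM and 55 to 79 with 1 library left out. Leaving out a library can only loosen the absent and confined rules. The 53 genes therefore had to be found again in each of the latter, which is no separate support. The confined genes numbered 12 at 2 CPM, 17 with under 3 counts allowed in each other line, and 5 to 10 with 1 library left out. Usage calls numbered 3 with both IGROV-1 libraries as separate samples, 4 with MinION and 0 to 1 with 1 library left out. The cause of these shifts was not tested. The log2 changes recomputed for 8 genes (EPHA3, RGS5, H2AFJ, HSPA1A, PLP2, NT5E, RPL22L1 and S100A16) kept their direction. These changes were large in the main fit and most alternatives reuse its libraries, so a kept direction is no separate support. No paired analysis was possible because each other line has a single library and carries no replicate number, so the groups compared share fewer than 2 numbers. Depth limits the absent and confined genes: a count of 0 allows a level of up to 0.64 CPM in the IGROV-1 pair and up to 1.73 CPM in another line.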
